A study of Mus musculus with 9 samples.

Results

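The genes described here are 10 transcription factors that mark the steps from a dividing cortical precursor to a newborn neuron: Eomes, Neurog1, Neurog2, Insm1, Hes6, Nhlh1, Neurod1, Neurod2, Neurod4 and Neurod6. They were chosen by name, and each had exactly 1 probe set annotated to it alone, among 22180 genes with such a probe set. Of the 10, 9 passed the filter on low levels and were tested among 13012 genes. Neurod4 lay below the array median on all 9 arrays and is given as levels, with a test only where the filter was left out.

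RNA was measured on 9 mouse gene arrays of cultured cells from the embryonic cortex of wild-type CD1 mice, 3 arrays per culture. The co-culture was made by growing neurons of day 16 (E16) embryos for 4 days and then placing precursors of day 13 (E13) embryos on them for 1 more day. The neuron cultures came from E16 embryos and were grown for 5 days altogether by one label and 4 by another. The precursor cultures came from E13 embryos and were grown for 1 day. The labels name no altered gene in any culture. They call the arrays of a group biological replicates 1 to 3 without saying which embryos or litters these were, so p-values measure the spread between these arrays. Cell type, embryonic age and days of growth change together between neurons and precursors and cannot be told apart.

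In the developing cortex, radial precursors either divide to renew themselves or give rise to intermediate progenitors, which divide away from the ventricular surface and produce neurons. The proneural factors Neurog1 and Neurog2 start this step by binding DNA sites called E-boxes together with a partner E protein, and they switch on a cascade that includes Eomes, Insm1, Hes6, Nhlh1 and the Neurod factors. Eomes and Insm1 mark and promote the intermediate progenitor state, Hes6 opposes the Notch-induced repressor Hes1, Nhlh1 and Neurod4 appear in newborn neurons, and Neurod2 and Neurod6 stay on in maturing excitatory neurons.

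Promoter windows of 300 bases, from 250 bases before to 50 after the transcription start, were read from RefSeq (GRCm38.p6) for 9 of the 10 genes. They are shown because proneural factors act through E-boxes and several of these genes lie downstream of them. The E-boxes searched on both strands were CAGATG, which reads CATCTG on the other strand, as well as CATATG and CAGCTG, which read the same on either strand, and no matches overlapped. Of the 9 windows, 4 held at least 1 of them, against 33.4% of all 32851 promoter windows. CAGATG was in 2 of 9 windows (17.2% of all), CATATG in 2 of 9 (3.91%) and CAGCTG in 1 of 9 (16.3%). The N-box CACNAG, which reads CTNGTG on the other strand and is a site class of Hes-type repressors, was in 5 of 9 windows, against 42.5% of all. A match describes letters in this window and does not show that a factor binds there. The windows with an E-box follow, with the E-boxes in capitals: Nhlh1 (chr1:172057547-172057846, minus strand), Hes6 (chr1:91413989-91414288, minus strand, the more upstream of its 2 windows), Neurod1 (chr2:79456587-79456886, minus strand) and Neurod2 (chr11:98329596-98329895, minus strand).
Nhlh1: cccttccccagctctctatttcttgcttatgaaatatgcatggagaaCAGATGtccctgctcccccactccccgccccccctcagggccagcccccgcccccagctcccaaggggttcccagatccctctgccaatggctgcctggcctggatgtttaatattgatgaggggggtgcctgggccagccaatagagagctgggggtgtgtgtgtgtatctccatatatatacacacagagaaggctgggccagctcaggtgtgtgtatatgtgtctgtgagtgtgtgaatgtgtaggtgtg
Hes6: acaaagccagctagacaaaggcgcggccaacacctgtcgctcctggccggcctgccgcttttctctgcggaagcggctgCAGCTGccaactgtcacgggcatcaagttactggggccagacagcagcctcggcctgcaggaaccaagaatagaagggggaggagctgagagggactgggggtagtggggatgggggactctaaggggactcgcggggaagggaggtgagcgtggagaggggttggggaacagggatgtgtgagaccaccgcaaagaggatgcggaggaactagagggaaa
Neurod1: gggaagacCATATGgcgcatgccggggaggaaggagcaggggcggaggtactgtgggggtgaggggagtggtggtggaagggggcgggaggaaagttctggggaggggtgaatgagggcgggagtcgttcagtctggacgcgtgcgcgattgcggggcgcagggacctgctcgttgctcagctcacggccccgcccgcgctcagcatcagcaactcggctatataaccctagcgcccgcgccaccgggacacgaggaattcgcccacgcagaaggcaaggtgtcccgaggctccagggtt
Neurod2: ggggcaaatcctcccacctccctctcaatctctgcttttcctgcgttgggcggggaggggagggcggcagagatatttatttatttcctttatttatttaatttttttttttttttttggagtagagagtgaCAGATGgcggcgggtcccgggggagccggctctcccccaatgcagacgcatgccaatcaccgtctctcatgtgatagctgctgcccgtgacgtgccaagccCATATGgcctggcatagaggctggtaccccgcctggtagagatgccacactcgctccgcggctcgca
Counted from the transcription start, CAGATG begins at -203 in the Nhlh1 window and CAGCTG at -171 in the Hes6 window. Neurod1 has CATATG at -242. Neurod2 has CAGATG at -118 and CATATG at -17. The windows of Eomes, Neurog1, Neurog2, Neurod4 and Neurod6 held none of these E-boxes, where Neurod4 was read at the more upstream of its 2 windows. The other Neurod4 window held CAGCTG at 4. The other Hes6 window held CAGCTG at -150 and CACNAG at -237 and 15. The counts above therefore depend on the window taken, and the windows of all genes were not reduced to 1 per gene.

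All levels below are log2 values made by the authors with RMA, so a difference of 1 is a 2-fold difference. Levels of different genes are not set against each other, because each probe set has its own brightness. Arrays of 1 group correlated at 0.988 or above over all probe sets, neuron with precursor arrays at 0.964 to 0.969, and co-culture with precursor arrays at 0.989 to 0.994. Cycling cell markers, over the 4 of 5 listed genes with a probe set, had a mean level of 6.94 to 7.34 on the neuron arrays and 9.98 to 10.03 on the precursor arrays. The 6 mature neuron markers averaged 10.8 on the neuron arrays and 9.36 to 9.44 on the precursor arrays. The pan-neuronal markers Tubb3, Map2 and Dcx were above the array median on all 9 arrays, those of precursors included. Markers of other cell types were present in part. The 5 interneuron markers with a probe set, of 6 listed, were above the array median on all 9 arrays. Of the 4 oligodendrocyte lineage markers, Olig1 and Olig2 were above it on all 9 arrays. Pdgfra was above it on 1 co-culture array alone and Sox10 on 1 neuron array alone. Of the 4 astrocyte markers, Aldh1l1 was above the array median on all 9 arrays, and Aqp4 and S100b on none. Of the 6 microglia and macrophage markers, Cx3cr1 and Fcer1g were above it on all 9 arrays, and P2ry12 and Itgam on none. Of the 4 endothelial and pericyte markers, Cdh5 and Pdgfrb were above it on all 9 arrays, and Cldn5 on none. The summed log2 level of the endothelial and pericyte markers lay between 8.77 and 8.85 on the neuron arrays and between 9.38 and 9.48 on the precursor arrays, and that of the microglia and macrophage markers between 9.53 and 9.68 on the neuron arrays and between 9.80 and 9.91 on the precursor arrays. Fcer1g (-1.01) and Cdh5 (-1.21) were lower in neurons, as many of the factors were. Of the other tested microglia and macrophage markers, Aif1 was higher in neurons (0.41). Cx3cr1 (0.022) did not differ at an adjusted p under 0.05 in limma. The other tested endothelial and pericyte markers, Pecam1 (-0.34) and Pdgfrb (-0.36), were lower in neurons. The part of such cells in the factor levels was not tested. In these bulk RNA samples, fewer cells of a type and less RNA per cell cannot be told apart.

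The first comparison asked how the factors differ between neurons and precursors. The proneural, intermediate progenitor and newborn neuron factors were lower in neurons, Neurod2 did not differ past the threshold, and Neurod6 was higher. Nhlh1 was the most different of them, 10.8-fold lower in neurons. Eomes was 2.41-fold, Hes6 1.98-fold, Neurog2 1.96-fold and Neurog1 1.70-fold lower. Neurod6 was 1.23-fold higher. Of the 9 tested factors, 7 were lower and 1 higher at an adjusted p under 0.05 in limma, where 63.1% of all tested genes passed in either direction, 35.2% as lower and 28.0% as higher.

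**Figure D1:**
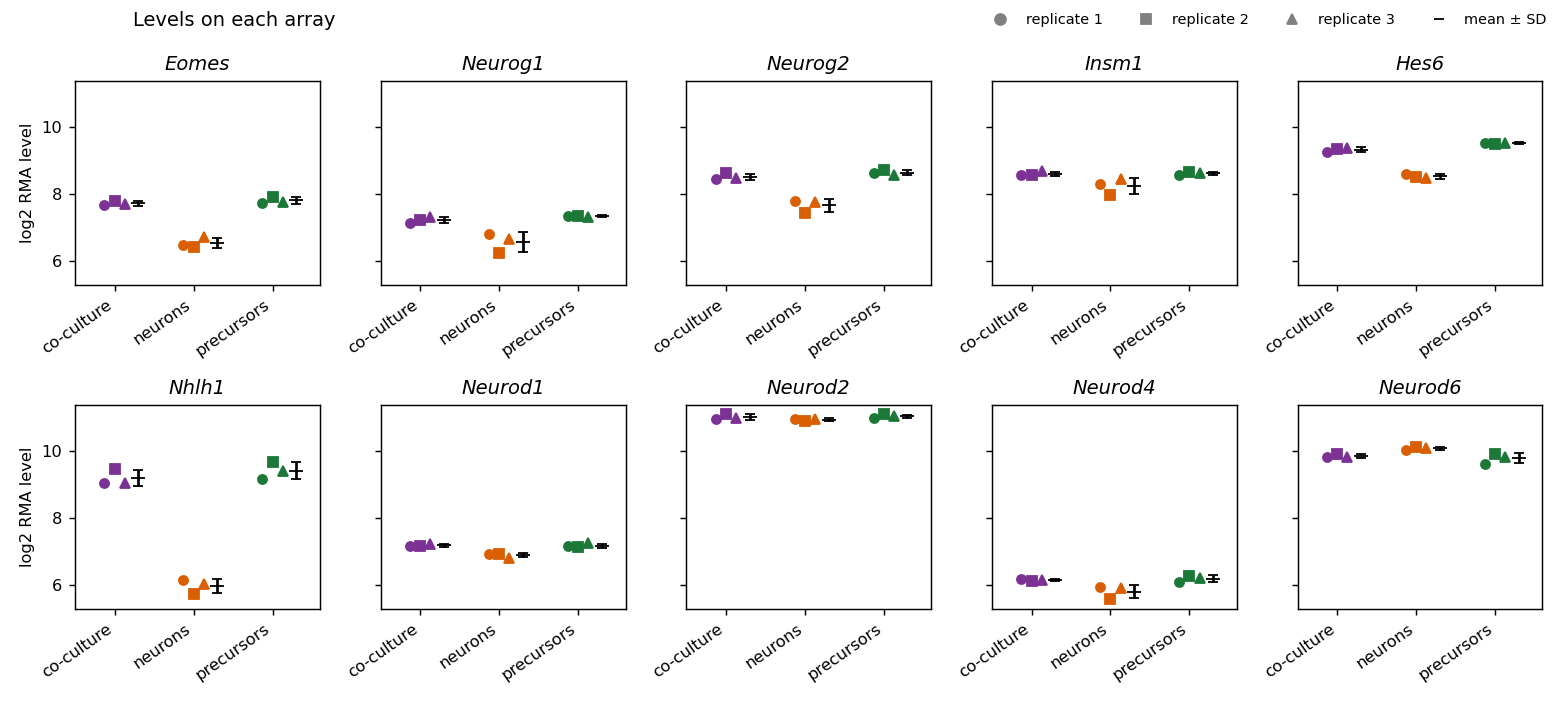
Log2 RMA level of each of the 10 factors on every array (points, with the symbol giving the replicate number), with mean and SD of 3 arrays beside them, for co-culture, neurons and precursors. Nhlh1 lies between 5.74 and 6.14 on the neuron arrays and between 9.03 and 9.66 on all others, while Neurod2 is at similar levels on all 9 arrays.

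The proneural factors come first in the cascade. Neurog1 was at 6.81, 6.25 and 6.64 on the neuron arrays, against 7.35, 7.35 and 7.30 on the precursor arrays. Every neuron array was below every precursor array. Only 1 neuron array was above the array median, so the fold of Neurog1 can be understated. The difference was -0.77 (95% confidence interval -1.04 to -0.50, adjusted p = 3.03e-04, limma). Neurog2, the main proneural factor of the dorsal cortex, was at 7.79, 7.45 and 7.75 in neurons, against 8.63, 8.71 and 8.56 in precursors. The groups again did not overlap, and all 3 neuron arrays were still above the array median. Its difference was -0.97 (-1.18 to -0.77, adjusted p = 8.43e-06).

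Among the factors of intermediate progenitors, Eomes (Tbr2), a T-box factor that defines these cells, was at 6.47, 6.43 and 6.72 in neurons, against 7.74, 7.92 and 7.77 in precursors. All neuron values were below the array median, so that Eomes entered the test only through the other cultures, and its fold can be understated. The difference was -1.27 (-1.46 to -1.08, adjusted p = 6.32e-07). Insm1, a zinc finger factor that promotes the formation of these progenitors, was at 8.30, 7.97 and 8.44 in neurons, against 8.55, 8.65 and 8.64 in precursors. The groups did not overlap, although the highest neuron array came close to the lowest precursor array. The difference was -0.38 (-0.61 to -0.14, adjusted p = 0.00931), and -0.24 without neuron replicate 2 (adjusted p = 0.00817). Hes6 was at 8.60, 8.50 and 8.48 in neurons, against 9.52, 9.49 and 9.53 in precursors. The arrays of each group were close together, with SDs of 0.068 in neurons and 0.021 in precursors. Hes6 differed by -0.99 (-1.10 to -0.87, adjusted p = 1.44e-07).

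Nhlh1, a basic helix-loop-helix factor expressed for a short time as neurons form, was at 6.14, 5.74 and 6.02 in neurons, against 9.15, 9.66 and 9.39 in precursors. No neuron array reached the array median, so that Nhlh1 too was tested only through the other cultures, and its fold can be understated. Its difference was -3.43 (-3.79 to -3.08, adjusted p = 6.00e-08). Neurod1, which acts late in intermediate progenitors and early in neurons, was at 6.91, 6.91 and 6.81 in neurons, against 7.15, 7.11 and 7.23 in precursors. The gap between the groups was small, and so was the difference, at -0.29 (-0.40 to -0.18, adjusted p = 6.57e-04). The neuron arrays lay only just above the array medians of 6.75 to 6.79, so the fold of Neurod1 can also be understated. Neurod4 was at 5.94, 5.57 and 5.89 in neurons, against 6.09, 6.26 and 6.21 in precursors. With the filter left out it was lower by the same test (-0.39, -0.60 to -0.18, adjusted p = 0.00826), and all 10 factors were then tested: 8 were lower and 1 higher, where 37.8% of 22180 genes passed.

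Of the factors that stay on in excitatory neurons, Neurod2 was at 10.95, 10.87 and 10.95 in neurons, against 10.98, 11.08 and 11.02 in precursors. The groups did not overlap, but the difference of -0.10 (-0.22 to 0.02) did not pass the threshold (adjusted p = 0.135, limma). Neurod6 was at 10.02, 10.10 and 10.07 in neurons, against 9.60, 9.89 and 9.80 in precursors. It was the 1 factor higher in neurons, by 0.30 (0.14 to 0.46, adjusted p = 0.00473). For all 9 tested factors the neuron and precursor arrays did not overlap, which was so for 66.4% of all tested genes.

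**Figure D2:**
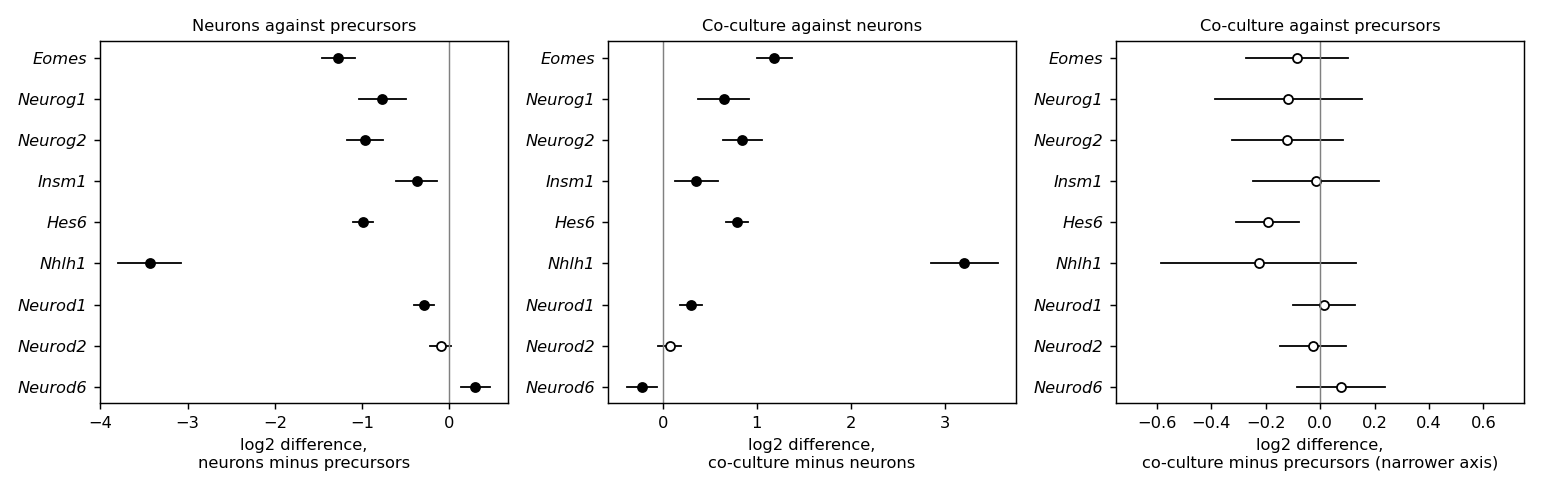
Log2 differences of the 9 tested factors (circles) with 95% confidence intervals (lines) for neurons against precursors, co-culture against neurons and co-culture against precursors, the last on a narrower axis. Filled circles have an adjusted p under 0.05 in limma; 8 factors are filled in the first panel, 8 in the second and 0 in the third.

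The median difference of the 9 factors between neurons and precursors was -0.77, beside -0.020 over all tested genes. Factors late in the cascade covered the whole range, with Nhlh1 at one end and Neurod6 at the other.

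Within the neuron cultures, replicate 2 had the lowest level of 7 of the 10 factors, among them Neurog1 (6.25), Neurog2 (7.45), Insm1 (7.97) and Nhlh1 (5.74). The same array had the highest mean level of the cycling cell markers (7.34, against 6.98 and 6.94 for replicates 1 and 3) and of the radial precursor markers (8.90, against 8.70 and 8.65). The part of these markers in the factor levels was not tested. Without that array the same 7 factors were lower and Neurod6 higher in neurons. In the precursor cultures, replicate 2 had the highest level of 7 of the 10 factors and the lowest mean level of the 5 interneuron markers (9.31, against 9.69 and 9.48). That array was also lowest for the cycling cell markers (9.98, against 10.02 and 10.03) and the radial precursor markers (10.057, against 10.113 and 10.095). It was lowest too for the astrocyte, the oligodendrocyte lineage, and the endothelial and pericyte markers. Again the part of these markers was not tested. These patterns were singled out after the values were seen. The shares of all tested genes with their lowest or highest level on these arrays are not given. Nothing particular to the factors is therefore read from the counts.

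Of the 21 listed proneural, intermediate progenitor and newborn neuron genes, 19 had a probe set and were tested, and 14 were lower and 3 higher in neurons (median -0.94), where 35.2% of all tested genes were lower and 28.0% higher, with a median of -0.020. Rcor2, a corepressor partner of the demethylase Kdm1a, differed by -2.22, St18, a Myt-family zinc finger factor, by -2.04, Mfng, a glycosyltransferase that modifies Notch, by -1.99, and Rnd2, a small GTPase and Neurog2 target in migrating neurons, by -1.39 (adjusted p = 3.95e-08, 1.24e-09, 5.24e-08 and 7.60e-07). The 3 higher genes were Unc5d (1.11), a netrin receptor family member of the subventricular zone, Zbtb18 (1.02), a repressor in postmitotic cortical neurons, and Dcx (0.30), a microtubule protein of migrating neurons (adjusted p = 9.89e-08, 2.78e-07 and 2.56e-04). Dcx falls outside the naming rule and was named after its value was seen. Of the lower genes named, St18 was above the array median on 0 of 3 neuron arrays, Mfng on 1 and Rcor2 on 2. St18 thus entered the test only through the other cultures, and the folds of these genes can be understated.

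The counts in the next 3 lists stand beside the same 35.2% lower and 28.0% higher among all tested genes, and nothing particular to a list is read from them. The E proteins Tcf3 (-1.34) and Tcf12 (-1.02), which pair with proneural factors on DNA, were lower in neurons, as was Id4 (-1.23), an inhibitor that binds E proteins away from DNA. The E protein Tcf4 (0.28) and the inhibitor Id2 (0.26) were higher. In all, 3 of the 5 tested genes of this list were lower and 2 higher (median -1.02), and Id1 and Id3 were below the filter. Of 8 cofactors through which Insm1 and Hes6 are known to repress, 6 were lower and 1 higher (median -0.29). The histone deacetylases Hdac1 (-1.19) and Hdac2 (-0.45) and the demethylase Kdm1a (-0.44) were lower, and the Groucho-family corepressor Tle2 (0.66) was higher. On the Notch side, whose repressors hold the proneural genes down, 5 of 6 genes were lower (median -0.99): Hey1 by -1.68, Rbpj by -1.02, Hes1 by -0.96 and Hes5 by -0.88, with Notch1 at -1.93. With the mean of all its probe sets, Hes5 differed by -0.51. Hey2, at 0.20, did not pass (adjusted p = 0.142, limma).

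**Figure D3:**
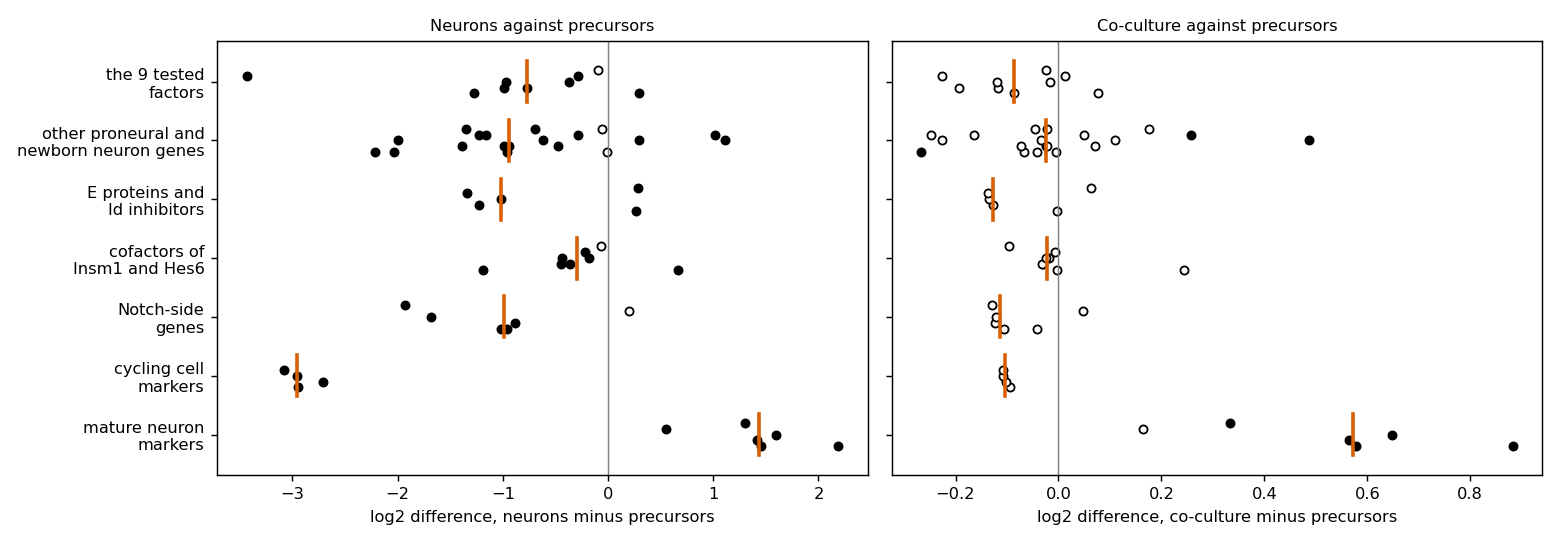
Log2 differences of the tested factors, of related gene lists and of 2 marker lists (points; filled with an adjusted p under 0.05 in limma) with the median of each list (vertical bar), for neurons against precursors on the left and co-culture against precursors on the right, on different axes. On the left the 9 factors have a median of -0.77, on the right of -0.085.

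The co-culture was next compared with precursors alone, which asks whether levels differ where precursors spent a day with neurons, and the array then read RNA from both. No factor passed the test: 0 of 9 were called at an adjusted p under 0.05 in limma, where 8.42% of all tested genes were, 8.22% as higher and 0.200% as lower. At an unadjusted p under 0.05, 1 factor was lower and 0 were higher, where 2.22% of all tested genes were lower and 15.8% higher. Hes6 was closest to the threshold. It was at 9.25, 9.34 and 9.38 in the co-culture, against 9.52, 9.49 and 9.53 in precursors. Every co-culture array was below every precursor array, and the difference was -0.19 (-0.31 to -0.076, adjusted p = 0.0522). Hes6 passed when only genes above the 75th percentile were kept (adjusted p = 0.0226), with array weights (0.0220) and without neuron replicate 1 (0.0410). With the replicate block on precursor and co-culture arrays alone it did not (0.0665).

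Nhlh1, whose level was the most variable within both cultures, was at 9.03, 9.45 and 9.04 in the co-culture, against 9.15, 9.66 and 9.39 in precursors. The groups overlapped, and replicate 2 was the highest array in each. The difference was -0.23 (-0.58 to 0.13, adjusted p = 0.569). Eomes was at 7.66, 7.80 and 7.71 in the co-culture, against 7.74, 7.92 and 7.77 in precursors, with an interval of -0.27 to 0.10. Neurog2 was at 8.44, 8.62 and 8.48, against 8.63, 8.71 and 8.56, with an interval of -0.33 to 0.085. The co-culture and precursor arrays of both overlapped. Neurog1 was at 7.13, 7.22 and 7.30 in the co-culture, against 7.35, 7.35 and 7.30 in precursors. The groups did not overlap by a narrow margin, and the interval was -0.39 to 0.15. Groups of 2 of the 9 factors, Neurog1 and Hes6, did not overlap, beside 24.8% of all tested genes.

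The remaining factors lay close to 0 between these cultures. Insm1 differed by -0.016 (-0.25 to 0.22), Neurod1 by 0.013 (-0.10 to 0.13), Neurod2 by -0.025 (-0.15 to 0.096) and Neurod6 by 0.076 (-0.086 to 0.24). These intervals leave room for differences of up to about the ends given, and do not show that the levels were alike. In the co-culture Neurod1 was at 7.16, 7.15 and 7.23, Neurod2 at 10.93, 11.09 and 10.98, and Neurod6 at 9.81, 9.91 and 9.80. Insm1 was at 8.55, 8.57 and 8.67 and Neurod4, below the array median, at 6.18, 6.11 and 6.15.

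Differences were also taken between arrays of the same replicate number, since such co-culture and precursor arrays tended to move together, least so at number 3. Hes6 differed by -0.27, -0.15 and -0.15 and Nhlh1 by -0.12, -0.21 and -0.35. Eomes, Neurog1 and Neurog2 were also lower in the co-culture at all 3 numbers, with Eomes between -0.12 and -0.060. Neurog1 differed by -0.23, -0.12 and -0.0027 and Neurog2 by -0.20, -0.090 and -0.074. Neurod6 was higher at all 3, by 0.21, 0.017 and 0.0024. The share of all tested genes with 1 direction at all 3 numbers is not given. Nothing particular to the factors is therefore read from these directions. The median difference of the 9 factors was -0.085, beside 0.020 over all tested genes.

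Genes of the wider cascade showed a few differences in this comparison. Of the 19 tested proneural and newborn neuron genes, 1 was lower and 2 were higher than in precursors (median -0.024), where 0.200% of all tested genes were lower and 8.22% higher. St18 was at 8.35, 8.40 and 8.34 in the co-culture, against 8.60, 8.67 and 8.62 in precursors. These groups were well apart, and St18 was lower by -0.27 (-0.37 to -0.17, adjusted p = 0.00495, limma). Unc5d was at 8.68, 8.70 and 8.68 in the co-culture, against 8.21, 8.09 and 8.30 in precursors, a difference of 0.49 (adjusted p = 4.49e-04). Zbtb18 differed by 0.26 (adjusted p = 0.0246) and did not pass without precursor replicate 1 (0.0804) or 2 (0.0875), without co-culture replicate 2 (0.106) or 3 (0.0875) or without the filter (0.0574). Unc5d and Zbtb18 are the genes of this list with the largest positive differences between neurons and precursors. Neuron RNA is part of the co-culture, and its part in both differences was not tested in this comparison. Of the 6 mature neuron markers, 5 were higher in the co-culture than in precursors. Their summed level lay between 12.89 and 12.92 in the co-culture and between 12.38 and 12.50 in precursors, on the log2 scale. The values of Unc5d and Zbtb18 against the predicted mixture are given with the test below. No gene of the E protein, cofactor or Notch-side lists passed the test.

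To ask whether the factor levels in the co-culture depart from a plain mixture of both RNAs, each was set against the level that mixing would give. Genes other than the factors and the lists put the part of the co-culture RNA that came from neurons at 16.7% ± 1.15 (SD, n = 3 co-culture arrays). The 104 genes at least 4-fold higher in neurons gave 22.6% and the 101 genes at least 4-fold higher in precursors 10.8%. No factor passed the test against the mixture: 0 of 9 were called, where 0.392% of all tested genes were, 0.361% as higher and 0.0307% as lower, and 0 of 9 had an unadjusted p under 0.05, where 6.91% of all tested genes did as higher and 1.31% as lower. Hes6 lay 0.069 below its predicted level of 9.39 (-0.069, -0.18 to 0.043, adjusted p = 0.753, limma) and Eomes 0.063 above its predicted level of 7.66 (-0.12 to 0.24, adjusted p = 0.861). Nhlh1 was within 0.010 of its predicted level of 9.16, with an interval of -0.34 to 0.36. The interval of Neurod1 was -0.050 to 0.16 and that of Neurod2 -0.12 to 0.10. The test treats the neuron part as known without error. All 6 mature neuron markers lay above their predicted levels, with a median of 0.21, and 4 had an unadjusted p under 0.05. The share used, 16.7%, is below the 22.6% from genes higher in neurons. Genes higher in neurons, Unc5d and Zbtb18 included, therefore tend to lie above their predictions by construction. Nothing particular to these markers is read from this direction. Of these markers, 1 passed (Mapt, 0.21, adjusted p = 0.0421, limma). Mapt did not pass with a neuron share higher by 0.1 (0.034, adjusted p = 0.677, limma). With the share taken from genes of its own direction, it did not pass either (0.10, adjusted p = 0.811). The same held without the filter (0.143), with centring (0.0530), with cyclic loess (0.0926) and with the replicate block (0.121). Leaving out any single array also lost the call (adjusted p = 0.0636 to 0.323). St18 was 0.072 below its prediction (-0.17 to 0.027, adjusted p = 0.717), Unc5d 0.23 above it (0.12 to 0.34, adjusted p = 0.133) and Zbtb18 0.030 above it (-0.088 to 0.15, adjusted p = 0.905).

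**Figure D4:**
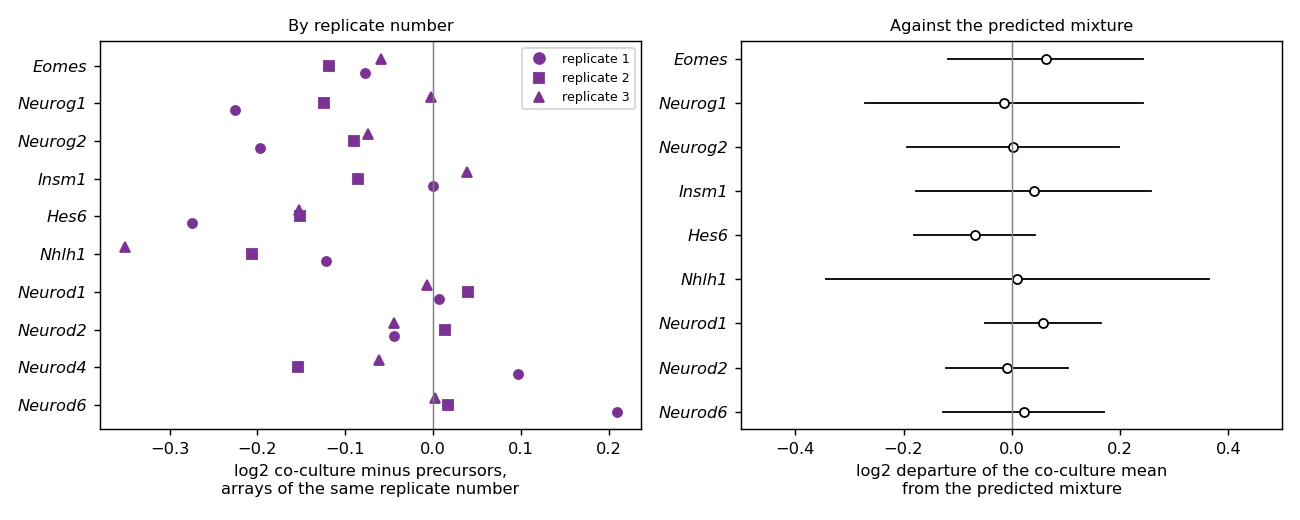
On the left, log2 level in the co-culture minus that in precursors for arrays of the same replicate number, for all 10 factors. On the right, departure of the co-culture mean of the 9 tested factors from the predicted mixture, with 95% confidence intervals. Open circles did not pass an adjusted p of 0.05 in limma. Hes6, Nhlh1, Eomes, Neurog1 and Neurog2 are below 0 at all 3 numbers on the left, with Neurog1 at -0.0027 for number 3. Every interval on the right includes 0.

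Set against neurons alone, the co-culture had the opposite pattern. This comparison shares its neuron arrays with the first one and its co-culture arrays with the second, so it is no separate evidence. Of the 9 factors 7 were higher in the co-culture and Neurod6 was lower, where 60.6% of all tested genes passed, 35.7% as higher and 24.9% as lower. Nhlh1 was 9.24-fold higher (3.21, 2.85 to 3.56, adjusted p = 1.93e-07, limma), Eomes 2.28-fold, Neurog2 1.80-fold, Hes6 1.73-fold and Neurog1 1.57-fold. Insm1 was higher by 0.36 (0.23 without neuron replicate 2) and Neurod1 by 0.30, and Neurod2 (0.075, adjusted p = 0.256) did not pass. Neurod6 differed by -0.22 (-0.38 to -0.060, adjusted p = 0.0228). It did not pass without neuron replicate 2 (0.0567) or 3 (0.0537) or without co-culture replicate 1 (0.0703) or 3 (0.0680). The co-culture and neuron arrays did not overlap for 8 of the 9 factors, beside 65.4% of all tested genes. Of the 19 tested genes of the wider cascade 15 were higher and 3 lower, with Rcor2 at 2.15, St18 and Mfng at 1.77 each and Rnd2 at 1.37. The limit given above for St18, Mfng and Rcor2 on the neuron arrays holds here too. Among the E proteins and Id inhibitors 3 of 5 tested genes were higher and 2 lower. Among the cofactors 6 of 8 were higher and 1 lower, and on the Notch side 5 of 6 were higher. With the filter left out, Neurod4 was higher by 0.35 (adjusted p = 0.0157).

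Over the 3 cultures, every factor but Neurod6 and Neurod1 had its highest mean in precursors, the co-culture close behind and neurons last. The difference between co-culture and precursors passed the test for none of them in limma, with Hes6 nearest to the threshold as given above. Neurod6 had the reverse order, with means of 10.06 ± 0.041 in neurons, 9.84 ± 0.058 in the co-culture and 9.76 ± 0.15 in precursors (SD, n = 3 each). Neurod1 had nearly the same mean in the co-culture (7.18 ± 0.042) and in precursors (7.17 ± 0.062), and both were above neurons (6.88 ± 0.058). Neurod2 means of 11.0 ± 0.081 in the co-culture, 10.92 ± 0.047 in neurons and 11.02 ± 0.049 in precursors did not differ past the threshold in any pair.

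The genes with the most similar profile were sought over the 9 arrays, as the root mean square distance between log2 levels centred on each gene's mean. Nearest to Eomes were Zic1 (0.044), a zinc finger factor, Otx1 (0.067), a homeobox factor of cortical precursors, and Haus4 (0.080), a subunit of the augmin complex of the spindle. Nearest to Neurog2 were Fcer1g (0.070), an Fc receptor subunit of microglia and other myeloid cells, Anp32e (0.075), a chaperone of a histone variant, and Snora68 (0.077), a small nucleolar RNA. Nearest to Nhlh1 were the histone gene H2bc12 (0.30), the topoisomerase gene Top2a (0.30) and the chromatin remodeller gene Chd7 (0.32). These distances grow with the size of a gene's differences, and the median distance to all other tested genes was 1.57 for Nhlh1, 0.58 for Eomes, 0.44 for Neurog2, 0.19 for Neurod1 and 0.22 for Neurod6. Nearest to Neurod1 were Usp6nl (0.023), Cbl (0.030) and Nup210 (0.032), and nearest to Neurod6 the potassium channel gene Kcnb2 (0.040), Tbc1d19 (0.041) and Fstl5 (0.046). None of the 9 factors had another of them among its 20 nearest genes. The closest pair, Neurog2 and Hes6, lay 0.11 apart.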

How the data were processed

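RNA levels were measured in 3 neuron, 3 precursor and 3 co-culture samples on arrays. The authors deposited 1 log2 value for each probe set and array. Per the submitters' processing notes, these come from RMA as run by oligo, with no version named. The sources used here name no genome build for them. The values ran from 2.95 to 13.9 with array medians of 6.75 to 6.79. Precision rests on 3 arrays per group.

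Only the 23521 of 41345 probe sets with a single symbol in the platform table were used. The highest-mean probe set stood for each gene. A further probe set listed for both Neurod1 and another gene was left out. Genes above the array median on at least 3 arrays were tested. One limma model (3.58.1, R 4.3.3) held all 9 arrays, with Benjamini-Hochberg adjustment over all 13012 tested genes, a threshold of 0.05 and two-sided tests. Confidence intervals are 95%.

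For the predicted mixture, the neuron share was the mean of 2 medians of (co-culture minus precursor) over (neuron minus precursor) on the linear scale, over genes at least 4-fold apart in either direction. Deviations of same-numbered co-culture and precursor arrays from their group means correlated positively across genes at all 3 numbers (0.345, 0.300 and 0.161). Their arrays of different numbers had correlations of -0.265 to -0.00676. Centring on group means ties these to the same-numbered values, so they are no separate evidence. Same-numbered neuron and precursor arrays had correlations of 0.0043, 0.134 and -0.148. Neuron replicate 3 with precursor replicate 1, of different numbers, had 0.225, so the 0.161 above does not stand out. Same-numbered neuron and co-culture arrays had correlations of -0.0051, 0.268 and 0.170, so only numbers 2 and 3 deviated together. Co-culture replicate 3 had nearly the same value with neuron replicate 1 (0.166). The labels do not say what a number stands for.

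The factors and related lists were chosen with earlier results of these data known. The naming rule took every factor, up to 4 genes per related list with the largest difference past the threshold, and any gene of a list of fewer than 8. The scripts were tested on simulated data. Alternatives were other filters, centring, cyclic loess, array weights, the replicate block, mean probe sets, other shares, and leaving out each array. No detection calls or probe-level values were used, so folds of dim genes can be understated.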

Additional observations from a re-analysis of the deposited data

How the results depend on the processing

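Leaving out each array, the replicate block, array weights, centring, cyclic loess, other filters and other neuron shares gave 600 recomputed differences of single factors, of which 559 kept their direction and their side of the threshold, 7 crossed the threshold and 34 changed sign. Of the 9 factors, the 7 lower in neurons than in precursors numbered 4 with the filter at the 75th percentile, as did the 7 higher in the co-culture than in neurons, because 6 of the 9 were then tested. The factors lower in the co-culture than in precursors, 0 as reported, numbered 1 (Hes6) with that filter and 1 with array weights, and 0 to 1 when single arrays were left out. Those lower in the co-culture than in neurons (Neurod6) also numbered 0 to 1 then. With the replicate block, the calls of the 9 factors did not change in any comparison: 0 were lower in the co-culture than in precursors, and Hes6 had an adjusted p of 0.0953 (0.0665 without the neuron arrays, limma).

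The sign changes were all of differences that passed no test, and the cause was not tested. Against precursors, the co-culture difference turned to -0.00093 for Neurod1 with array weights. When single arrays were left out it ran from -0.053 to 0.0070 for Insm1, -0.013 to 0.047 for Neurod1, -0.070 to 0.0086 for Neurod2 and -0.0062 to 0.14 for Neurod6. Against neurons, Neurod2 turned to -0.019 with cyclic loess. Against the mixture, a neuron share lower by 0.1 gave -0.028 for Eomes, -0.072 for Neurog2 and -0.14 for Nhlh1, and a share higher by 0.1 gave 0.051 for Neurog1, 0.011 for Hes6, 0.0011 for Neurod2 and -0.0097 for Neurod6. The share of the gene's own direction gave -0.042 for Neurog2 and -0.078 for Nhlh1. Cyclic loess gave 9.4e-05 for Neurog1 and -0.0071 for Neurog2, array weights -0.0015 for Neurog2 and -0.016 for Nhlh1, and centring 0.0016 for Neurod2. When single arrays were left out, the departure ran from -0.059 to 0.031 for Neurog1, -0.051 to 0.043 for Neurog2, -0.13 to 0.15 for Nhlh1, -0.054 to 0.025 for Neurod2 and -0.045 to 0.069 for Neurod6. Over all tested genes, the 26 lower in the co-culture than in precursors numbered 42 with the replicate block (65 without the neuron arrays), 87 with array weights, 43 with the filter at the 75th percentile, 40 with no filter and 7 to 51 when single arrays were left out. The 1069 higher genes numbered 676 without co-culture replicate 2. The 47 genes above the mixture numbered 569 with a share lower by 0.1, 2 with one higher by 0.1, 9 with the share of the gene's own direction, 95 with array weights, 80 with the stricter filter, 25 with the block and 19 with no filter, and 9 to 41 without single arrays. The 4 genes below it numbered 0 to 12.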
